A study of Homo sapiens with 2 samples.

Results

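The genes described here encode the collagen receptors of the cell surface, namely the integrin alpha subunits ITGA1, ITGA2, ITGA10 and ITGA11, their common beta subunit ITGB1, and the discoidin domain receptor kinases DDR1 and DDR2. The members are these 7 genes of the 18244 genes that the array table names, and they were read by all 22 probe sets whose only gene symbol in the platform annotation was one of them. The cells were MDA-MB-231, an established human breast cancer line of basal and mesenchymal character without hormone receptors. One group was the parental line, labelled control, and the other was a clone of it with a stable knockdown of UGT8, the ceramide galactosyltransferase that makes galactosylceramide. Both were grown in DMEM with 5.6 mmol/L glucose, and RNA was taken 48 h after passage. Each group held 1 array, so no value below carries a replicate error, no test was possible and each difference describes this pair of arrays. Because a single clone was set against its parental line, the loss of UGT8 and differences between any clone and its parent cannot be told apart. The labels do not name the knockdown construct or a vector control.

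The 4 integrin heterodimers of this kind bind triple-helical collagen, and in each of them ITGB1 pairs with one of the alpha subunits above. The alpha subunit carries an inserted I domain that grips collagen through a bound metal ion, and the cytoplasmic tail of ITGB1 links the pair to talin, kindlin and the actin cytoskeleton. DDR1 and DDR2 are receptor tyrosine kinases that recognise collagen on their own, without an integrin. In breast epithelium and breast carcinoma, alpha-2/beta-1 and DDR1 are the familiar collagen receptors, whereas alpha-11/beta-1 and DDR2 are known chiefly from fibroblasts and other mesenchymal cells, and ITGA10 was first described in cartilage.

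The 3 alpha subunit genes that differed by over 2-fold are shown with the sequence before their start sites, beside that of ITGB1, which hardly differed. The windows are the 250 bases before an annotated start in RefSeq, build GRCh38.p14, written 5′ to 3′ on the gene's strand. Capitals mark matches on either strand to any of 6 short motifs, namely GGGCGG for the GC box, TATAAA for the TATA box, CCAAT for the box of that name, TGANTCA for AP-1, CACCTG for the E-box of the Snail and ZEB type and GGAATG for TEAD. The ITGA10 window lies at chr1:145910051-145910300 on the minus strand, that of ITGA1 at chr5:52787666-52787915 and that of ITGA2 at chr5:52989102-52989351, both on the plus strand. The ITGB1 window lies at chr10:32958231-32958480 on the minus strand and is one of a pair in the table.
ITGA10: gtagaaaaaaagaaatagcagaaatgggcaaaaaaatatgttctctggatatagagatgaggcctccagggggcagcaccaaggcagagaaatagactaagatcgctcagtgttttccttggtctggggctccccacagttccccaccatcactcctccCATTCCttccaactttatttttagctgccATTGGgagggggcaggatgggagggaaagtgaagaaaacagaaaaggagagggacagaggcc
ITGA1: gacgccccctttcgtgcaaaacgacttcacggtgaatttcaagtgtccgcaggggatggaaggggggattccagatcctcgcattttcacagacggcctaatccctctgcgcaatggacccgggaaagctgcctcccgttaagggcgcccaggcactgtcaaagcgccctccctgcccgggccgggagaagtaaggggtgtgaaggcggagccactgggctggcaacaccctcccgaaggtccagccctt
ITGA2: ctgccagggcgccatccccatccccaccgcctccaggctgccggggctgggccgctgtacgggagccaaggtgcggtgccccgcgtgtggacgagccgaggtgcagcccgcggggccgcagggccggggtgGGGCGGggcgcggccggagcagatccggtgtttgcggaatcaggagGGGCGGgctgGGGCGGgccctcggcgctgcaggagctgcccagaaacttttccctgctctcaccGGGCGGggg
ITGB1: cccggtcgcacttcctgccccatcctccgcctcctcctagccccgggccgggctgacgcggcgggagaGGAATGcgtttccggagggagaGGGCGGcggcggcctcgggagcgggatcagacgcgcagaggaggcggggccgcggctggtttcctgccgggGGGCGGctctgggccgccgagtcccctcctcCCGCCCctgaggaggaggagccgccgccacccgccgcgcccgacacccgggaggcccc

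The windows of these 3 alpha subunit genes had little in common by these measures. The ITGA10 window held 1 CpG and was 48.4% G and C, and its matches were 1 CCAAT box and 1 TEAD site. The ITGA1 window held 16 CpG, was 62.0% G and C and had no match to any of the 6 motifs. The ITGA2 window held 26 CpG and 4 GC boxes and was 76.4% G and C. The ITGB1 window shown held 32 CpG, 3 GC boxes and 1 TEAD site and was 78.4% G and C. The other ITGB1 window, at chr10:32935559-32935808, was of another kind, with 4 CpG, 41.6% G and C, 3 TATA boxes and no GC box. Which start these cells use was not tested, and the CpG-rich window was chosen for display with both compositions known. Over the 35116 windows of the table, the median was 11 CpG and 58.0% G and C. Of those windows, 42.6% held a GC box, 32.0% a CCAAT box, 11.9% a TEAD site, 17.5% that E-box, 10.7% a TATA box and 6.57% an AP-1 site. A match is a run of letters and says nothing of binding in these cells.

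The table's facts that bear on these genes are few. The deposited RMA values (log2) ran from 2.72 to 14.3 in control cells and from 2.67 to 14.4 in the clone. A floor was set at log2 6.64, the median over all non-control probe sets of the mean of both arrays, and 10439 genes lay past it on their brightest probe set. Among genes past the floor the median difference, knockdown minus control, was 0.03. UGT8 itself read 8.95, 7.47 and 7.06 in control cells and 6.61, 5.78 and 4.79 in the clone, so all 3 of its probe sets were lower in the cells labelled as knockdown, where each lay below the floor. The 3′ minus 5′ reading of ACTB, a sign of RNA quality, was 0.49 in control cells and 0.90 in the clone, and that of GAPDH was 0.18 and 0.19. The part of RNA quality in the differences below was not tested. The median difference was 0.51 over the control RNAs added at hybridisation and 0.07 over the poly-A control RNAs.

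The line's identity was checked on its markers. VIM read 13.9 on both arrays, CD44 read 12.8 in control cells and 12.5 in the clone, and EGFR read 9.92 and 9.39. Of the receptor and luminal genes, ESR1 (6.31 and 6.30) and PGR (3.37 and 3.45) lay below the floor on both arrays. GATA3 (8.73 and 8.51), ERBB2 (8.56 and 8.73), CDH1 (8.01 and 7.66) and FOXA1 (6.65 and 6.71) had brightest probe sets past it. The receptor and luminal genes thus gave a mixed picture. Markers of other cells that could carry collagen receptors lay on both sides of the floor. All 5 platelet markers lay below the floor, as did 7 of 10 fibroblast markers, 4 of 6 endothelial markers and 3 of the 6 leukocyte markers with a probe set. PTPRC, the pan-leukocyte phosphatase, read 3.56 and 3.40, and COL1A2, a type I collagen chain of fibroblasts, read 5.47 and 5.58. Summed over the 10 fibroblast markers, the level was log2 11.6 in control cells and 10.5 in the clone, and LUM (-1.34) and COL6A3 (-1.32) differed most. The endothelial sum was log2 9.30 and 8.67, with PECAM1 at -1.09. The leukocyte sum was 9.997 and 10.13, with CD8A at 1.02 and CD14 at -0.73. The part of other cells in the results was not tested.

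Of the 4 collagen-binding alpha subunit genes, 3 were lower in the knockdown clone by over 2-fold, DDR1 was lower by less, and ITGB1 read nearly the same on both arrays. Both remaining members, ITGA11 and DDR2, lay below the floor on all of their probe sets. Of the 5 members past the floor, 3 were at least 2-fold lower (ITGA10, ITGA1 and ITGA2) and 4 at least 1.5-fold lower (DDR1 as well), and none was higher by 1.5-fold. The background over all genes past the floor was 1.54% at least 2-fold lower, 0.738% at least 2-fold higher, 6.74% at least 1.5-fold lower and 4.96% at least 1.5-fold higher. ITGA10 and ITGA1 passed the floor through the control array, since both read below it in the clone, so that their place among the genes past the floor goes with a lower knockdown reading. Where a gene past the floor read below it on 1 array, its fold is given below as a lower bound, from the reading on the other array to the floor. With readings below the floor set at the floor, the same 3 members were at least 2-fold lower and the same 4 at least 1.5-fold lower. The background was then 1.47% at least 2-fold lower, 0.642% at least 2-fold higher, 6.63% at least 1.5-fold lower and 4.81% at least 1.5-fold higher. As read, the median was -1.36 for the 5 members past the floor and -0.73 for all 7. By single probe sets, 5 of 22 were at least 2-fold lower as read (22.7%), 4 of them with a mean past the floor, and 7 at least 1.5-fold lower, and none was higher by 1.5-fold. Over all 49393 non-control probe sets the shares were 1.09% at least 2-fold lower, 0.551% at least 2-fold higher, 4.58% at least 1.5-fold lower and 3.5% at least 1.5-fold higher. The median over the 22 probe sets was -0.20, against 0.01 over all probe sets. Probe sets of a gene share their RNA and often their transcript, so the 22 readings are not independent.

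**Figure D1:**
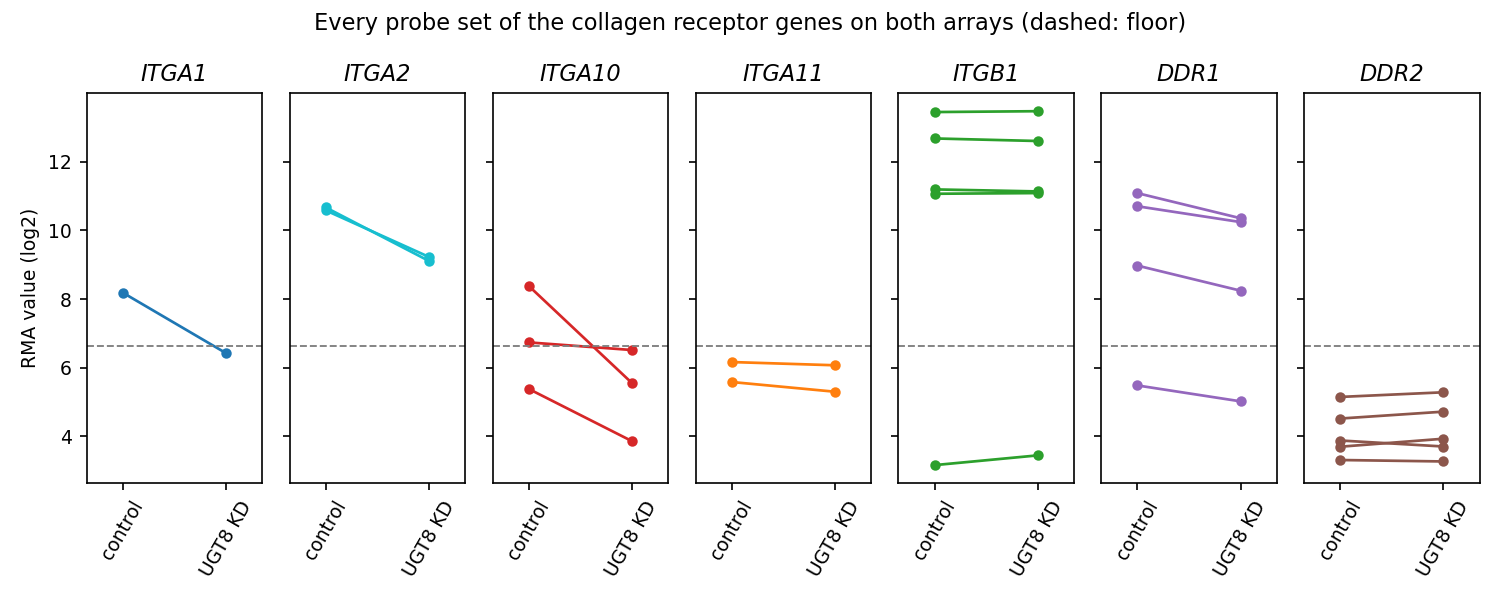
RMA values (log2, vertical axis) of every probe set of the 7 collagen receptor genes for the control cells and the UGT8 knockdown (KD) clone, with a line joining the 2 readings of a probe set and a dashed line at the floor of 6.64. All probe sets of ITGA1, ITGA2, ITGA10, ITGA11 and DDR1 slope down, with differences from -2.83 to -0.09, and the 4 bright ones of ITGB1 are nearly level.

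ITGA10, whose product binds type II and other collagens, had the lowest difference as read of all 10439 genes past the floor. Its brightest probe set read 8.39 in control cells and 5.55 in the clone, a difference of -2.83. The clone reading lies below the floor, so the reading in control cells was at least 3.36-fold higher, and against the floor ITGA10 ranked 14th from the lowest. The dimmest probe set read 5.38 and 3.86 (-1.52), both below the floor, so no fold is given for it. The remaining one read 6.73 and 6.51, a difference of -0.22. The 3 probe sets thus pointed one way but disagreed in size, with a mean of -1.52 ± 1.304 (SD over probe sets of this pair of arrays, which is no replicate error). Of the 3, 2 lay below the floor on their mean, so the size of the ITGA10 difference rests on 1 probe set. The probe set at -0.22 missed the floor only narrowly, with a mean of 6.62 against 6.64. Its reading in the clone was brighter than that of the brightest probe set. For comparison, the median SD over the probe sets of a gene was 0.08 over 6067 genes with at least 2 past the floor.

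ITGA1, which prefers type IV collagen of basement membranes, had 1 probe set. It read 8.19 in control cells and 6.42 in the clone, a difference of -1.76. The clone reading again lies below the floor, so the reading in control cells was at least 2.92-fold higher. ITGA1 ranked 17th from the lowest as read and 28th against the floor. No other probe set was there to set it against. ITGA2, which prefers fibrillar type I collagen and is the familiar collagen receptor of epithelial cells and platelets, was bright on both arrays. Its brightest probe set stood at 10.6 in control cells and 9.23 in the clone, 2.56-fold lower (-1.36). The other read 10.7 and 9.11, 2.95-fold lower (-1.56). These probe sets differed from each other by far less than either differed between the arrays, with a mean of -1.46 ± 0.14 (SD over the 2 probe sets). On its brightest probe set ITGA2 ranked 56th from the lowest as read and 53rd against the floor. ITGA2 is the only collagen-binding alpha subunit gene here whose readings lay well past the floor on both arrays.

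ITGA11, a receptor for fibrillar collagen known from stromal fibroblasts, was dim in both cultures. Its probe sets read 6.16 and 5.58 in control cells and 6.07 and 5.29 in the clone, differences of -0.09 and -0.28. All 4 readings lie below the floor, where a low transcript level and background cannot be told apart in these values.

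ITGB1, the beta subunit that every collagen-binding integrin needs, lay past the floor on 4 of its 5 probe sets and hardly differed on these. Its brightest probe set read 13.46 in control cells and 13.48 in the clone (0.03). The next 3 read 12.7, 11.2 and 11.1 in control cells and 12.6, 11.1 and 11.1 in the clone, with differences of -0.07, -0.06 and 0.02. Over these 4 probe sets the mean difference was -0.02 ± 0.05 (SD over probe sets). The remaining probe set read 3.15 and 3.44 (0.28), below the floor on both arrays. In the order of differences ITGB1 stood 5169th of 10439, close to the middle.

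Of the kinase genes, DDR1 lay past the floor on 3 of its 4 probe sets and DDR2 on none. DDR1, the epithelial member of the pair, was lower on all 4 probe sets. They read 11.09, 10.71, 8.97 and 5.48 in control cells and 10.36, 10.25, 8.24 and 5.01 in the clone. The differences were -0.73, -0.46, -0.73 and -0.46, with a mean of -0.60 ± 0.16 (SD over probe sets), and the brightest was 1.66-fold lower. On 2 of the 4 probe sets the difference reached 1.5-fold. All 4 lay inside the central 95% of differences of probe sets at their level, which for the tenth of probe sets that holds the brightest ran from -0.84 to 0.60. DDR2, which binds fibrillar collagen in mesenchymal cells, lay below the floor on all 5 probe sets. They read between 3.30 and 5.14 in control cells and between 3.26 and 5.28 in the clone, and the differences ran from -0.17 to 0.23, with 2 below 0 and 3 above.

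Set against probe sets of like level, the member readings that stood out were all of alpha subunits. Integrin subunits outside the members were not put through this comparison. When all probe sets were cut into 10 groups by mean level, 5 of the 22 member probe sets lay outside the central 95% of the differences in their own group. These were the only ITGA1 probe set, both of ITGA2, and the brightest and the dimmest of ITGA10, the last with both readings below the floor. Both ITGA11 probe sets and the remaining one of ITGA10 (-0.22) lay inside it. In the group that holds the brightest ITGA10 probe set and that of ITGA1 the central 95% ran from -0.84 to 0.80. In that of ITGA2 it ran from -0.87 to 0.68, and in that of the dimmest ITGA10 probe set from -0.49 to 0.56. These spans are spreads over transcripts within this pair of arrays and take the place of no replicate.

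**Figure D2:**
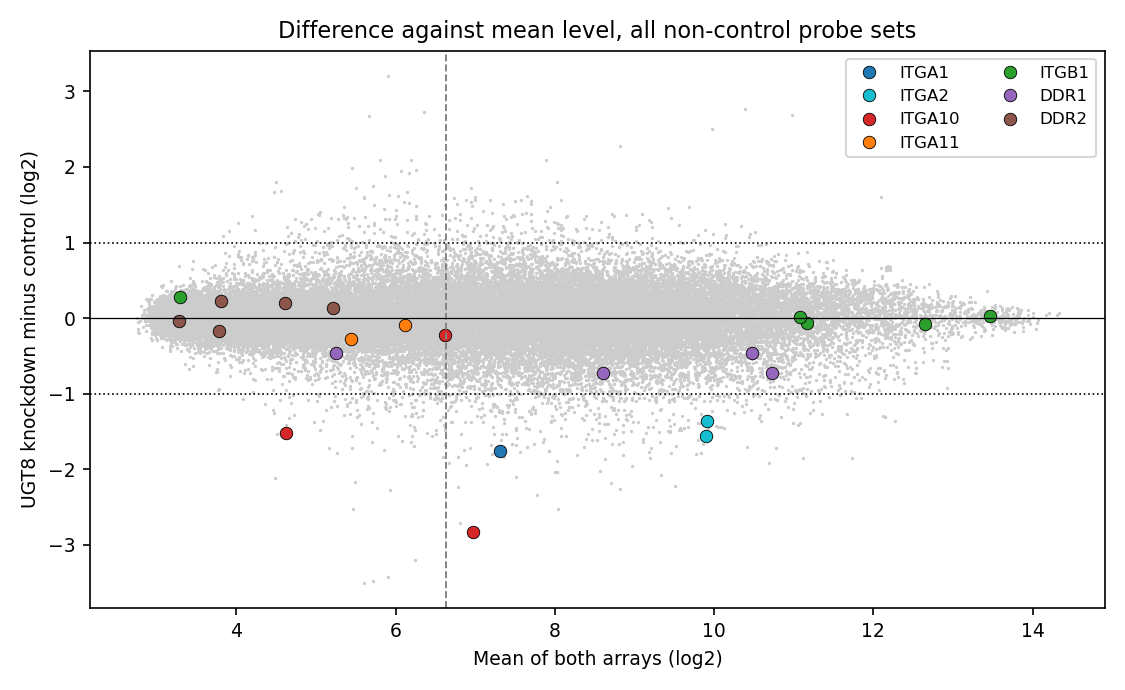
Difference between the arrays (log2, knockdown minus control, vertical axis) against the mean of both arrays (log2, horizontal axis) for all 49393 non-control probe sets in grey and the 22 member probe sets in colour. Dotted lines mark 2-fold and the dashed line the floor of 6.64, and the ITGA10, ITGA1 and ITGA2 points below the lower dotted line contrast with the ITGB1 points along 0.

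Some alpha subunits that pair with ITGB1 but bind other ligands were lower as well. Of the 8 such genes, 5 lay past the floor, and 3 of these were at least 1.5-fold lower, with a median of -0.79, against -0.17 over all 8. ITGA7, a laminin receptor subunit of muscle, differed by -1.04 on its only probe set (7.55 and 6.51). It passed the floor through the control array alone, where it read at least 1.89-fold higher, so its count as 2-fold lower does not hold against the floor. ITGA3, a laminin receptor subunit, differed by -0.83 (11.2 and 10.3), with all 3 of its probe sets lower. ITGAV, of the receptors for RGD sites, differed by -0.79 (10.9 and 10.1), which was the smallest difference of its 5 probe sets. All 5 lay past the floor and were lower, by up to -1.31, and their mean of -1.05 passed 2-fold. ITGA6 (-0.22), a laminin receptor subunit of epithelia, and ITGA5 (-0.05), the fibronectin receptor subunit, differed least of the 5 genes past the floor. Of the 13 remaining integrin subunit genes 7 lay past the floor, and 5 of these were at least 1.5-fold lower, led by ITGB8 (-2.11) and ITGB3 (-1.36), or -0.89 and -0.90 as means over all of their probe sets. ITGB8 read 8.56 and 6.45 and passed the floor through the control array alone, where it read at least 3.79-fold higher. Over all 13 genes the median was -0.14. Whether the collagen-binding subunits differed more than the others was not tested.

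**Figure D3:**
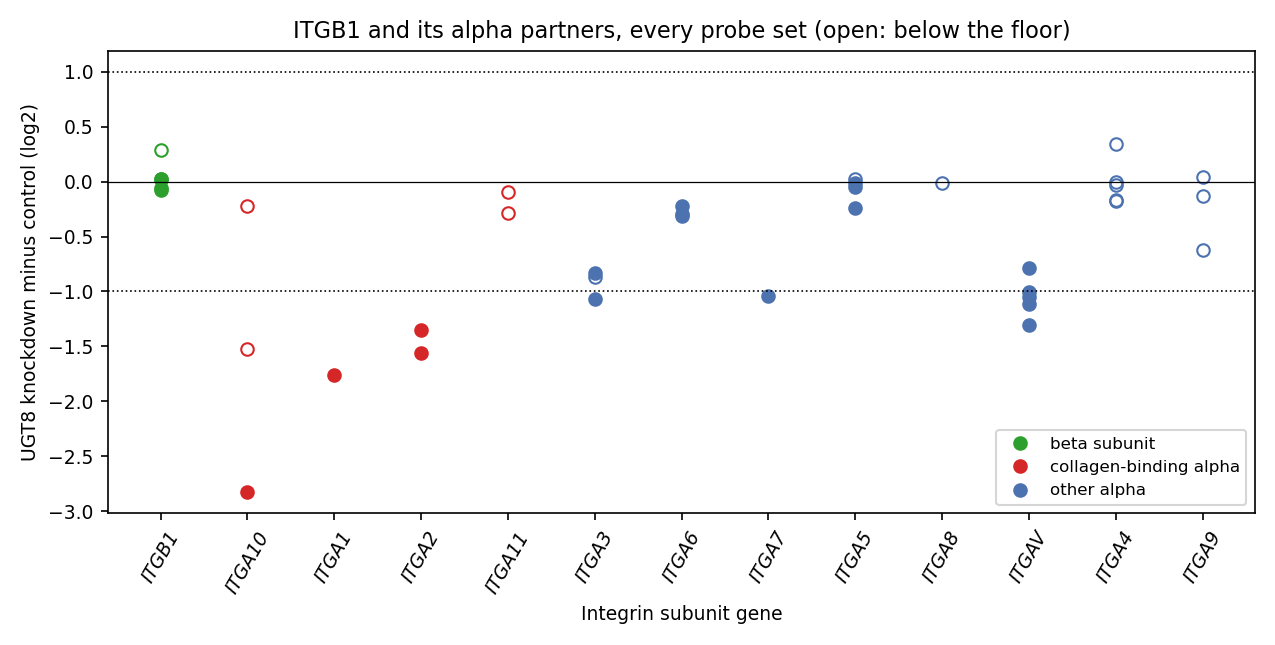
Difference between the arrays (log2, knockdown minus control, vertical axis) for every probe set of ITGB1 and of each alpha subunit gene that pairs with it (horizontal axis), filled where the probe set lies past the floor of 6.64 and open where it does not. The filled points of ITGA10, ITGA1 and ITGA2 lie between -2.83 and -1.36, those of the other alpha subunits between -1.31 and -0.01, and those of ITGB1 between -0.07 and 0.03.

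Collagen receptors outside these families gave few readings. Of 6 such genes 3 lay past the floor, all below 0, and 1 was at least 1.5-fold lower. That gene was MRC2, the endocytic receptor that takes up collagen fragments, which read 9.67 in control cells and 8.74 in the clone (-0.92) and was lower on all 4 probe sets, with a mean of -0.59. The adhesion receptors ADGRG6 (-0.56) and ADGRG1 (-0.03) bind type IV and type III collagen. GP6, the platelet collagen receptor, and the leukocyte receptors LAIR1 and OSCAR lay below the floor.

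Among the ligands, several collagen chains were also lower. Of 11 fibrillar chain genes 3 lay past the floor, and 2 of these were at least 1.5-fold lower, COL3A1 (-1.53, from 8.004 to 6.475) and COL5A1 (-0.67, from 10.3 to 9.68). COL3A1 passed the floor through the control array alone, where it read at least 2.58-fold higher. The type I chain genes COL1A1 and COL1A2 lay below it. Of 12 genes of network and beaded collagens 8 lay past the floor and 5 were at least 1.5-fold lower. The beaded type VI chains led them, COL6A3 (-1.32), COL6A2 (-1.21) and COL6A1 (-0.66), with the network chains COL4A5 (-0.82) and COL8A1 (-0.65). COL4A5 (7.22 and 6.40) also passed through the control array alone, and against the floor, at -0.58, it missed 1.5-fold. As means over all probe sets, dim ones included, COL6A2 stood at -0.43, COL4A5 at -0.44 and COL8A1 at -0.23. COL4A1 (0.08) and COL4A2 (-0.06), the chains of the common type IV collagen that alpha-1/beta-1 binds, hardly differed. The median over the 3 fibrillar genes past the floor was -0.67, but -0.03 over all 11 and -0.22 without _s_at and _x_at probe sets. That of network and beaded chains was -0.65 over 8 genes and -0.33 over all 12.

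Of the machinery inside the cell that serves these receptors, activators, adaptors and trafficking genes lay near 0 as groups. Of 19 activators and adaptors past the floor, 10 were below 0 and 9 above, with a median of -0.04. FERMT1, the epithelial kindlin that binds beta tails and activates integrins, was the only one past 1.5-fold, at 1.51 (6.60 in control cells and 8.11 in the clone). It passed the floor through the knockdown array alone. Its reading in the clone was at least 2.77-fold higher, and its 5 probe sets were all higher, by 0.18 to 1.51 and on average by 0.79. The 11 trafficking genes past the floor had a median of 0.07. EHD1, which returns receptors from recycling endosomes, was the only one past 1.5-fold, at 0.77 (9.45 and 10.2), with all 7 probe sets higher, on average by 0.47. The 4 inhibitors of integrin activation past the floor had a median of 0.27, with 1 below 0 and 3 above. The 1 below, DAB2 (-0.61), an endocytic adaptor that binds beta tails, was the only one to reach 1.5-fold. ITGB1BP1, which binds the ITGB1 tail and keeps talin off it, was higher on all 3 probe sets, by 0.56, 1.22 and 0.81 from the brightest to the dimmest. It missed 1.5-fold on the brightest and was chosen after its values were seen. Centred on the hybridisation controls, where each difference is lower by 0.51, the medians of activators, trafficking genes and inhibitors were -0.55, -0.45 and -0.25.

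Downstream of the kinases the genes as a group again lay near 0. Of 10 genes of DDR signalling and shedding past the floor 3 were below 0 and 7 above, with a median of 0.07, or -0.45 when centred on the hybridisation controls. ADAM10, the protease that sheds DDR1 from the cell surface, was the only one past 1.5-fold on its brightest probe set. It read 9.54 in control cells and 8.75 in the clone (-0.79) and was lower on all 4 probe sets. The adaptor gene SHC1 (0.03) and the phosphatase gene PTPN11 (0.08), whose products dock on activated DDR kinases, hardly differed. Of the 6 collagen-degrading metalloprotease genes 3 lay past the floor and none reached 1.5-fold on its brightest probe set. MMP14, the membrane-anchored collagenase, differed by -0.49 and MMP1, the interstitial collagenase, by 0.10. For MMP14 this was the smallest difference of its 4 probe sets. All 4 were lower, by up to -0.79, and their mean of -0.61 passed 1.5-fold.

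**Figure D4:**
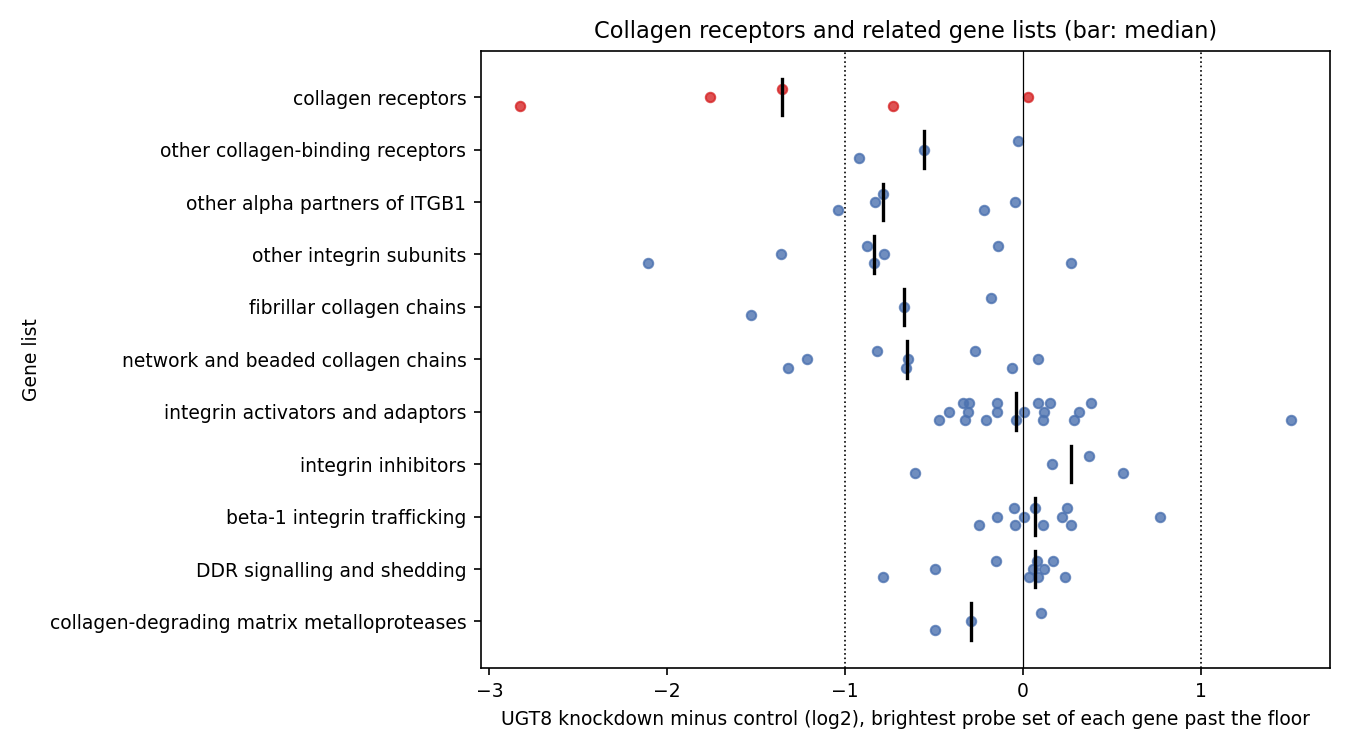
Difference between the arrays (log2, knockdown minus control, horizontal axis) of each gene past the floor on its brightest probe set, in the collagen receptor list and 10 related lists (vertical axis), with a bar at each median. The receptor median is -1.36 over 5 genes (-0.73 over all 7), those of the other integrin and collagen chain lists lie between -0.84 and -0.65, that of other collagen-binding receptors at -0.56, metalloproteases at -0.29, activators, trafficking and DDR signalling between -0.04 and 0.07, and inhibitors at 0.27.

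By size of difference alone, the genes nearest to ITGA10 were SLCO4C1 (-2.71), an organic anion transporter, UGT8 itself (-2.34) and CFB (-2.22), complement factor B. Those nearest to ITGA1 were CRTAM (-1.76), LEMD1 (-1.78) and LGR5 (-1.75), a receptor of the Wnt pathway. Of these, SLCO4C1, UGT8 and LGR5 read below the floor in the clone, and the likeness rests on a single difference between 2 arrays.

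The signs of ITGB1 and DDR2 changed with the scaling. Among the scalings, only centring on the hybridisation controls changed the size of the other differences by much. ITGB1 also changed sign on the deposited scale, to -0.06 without _s_at and _x_at probe sets. DDR2 lay below the floor on all 5 probe sets, which pointed both ways. The lower readings of ITGA10, ITGA1, ITGA2, ITGA11 and DDR1 kept their sign under every scaling tried. ITGB1 (0.03 as deposited) read -0.0017 with the loess curve removed and -0.05 when centred on the poly-A controls. ITGB1 and DDR2 (0.14) turned to -0.49 and -0.38 when centred on the hybridisation controls, where the median over genes past the floor was -0.48. Relative to that median ITGB1 lay near the typical gene on each scale.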

How the data were processed

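Total RNA of both cultures was hybridised to 1 Affymetrix expression array each, as biotin-labelled cRNA. The deposited values are on the log2 scale (judged from their range) and were made with RMA, per the submitters' processing notes. RMA corrects background, normalizes between arrays and summarises probe sets, so a shift common to most transcripts is removed. No source used here gives the software version or genome build. The sorted values of the arrays differ by at most 0.07.

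The table held 49495 probe sets: 102 controls, 45278 with exactly 1 symbol in the platform annotation, 1333 with several and 2782 with none. Members, lists and tests were chosen with earlier results of these data known. A gene was read by its brightest probe set (highest mean of both arrays), and members by all. With 1 array a group there were no tests. Counts at 2-fold and 1.5-fold stand beside those over all features. The named genes were the members, UGT8, up to 5 genes of each list past the floor and past 1.5-fold, and for the 2 members that differed most the 3 genes nearest in difference. Integrin subunits outside the members were to be named for the 3 largest differences. The other named genes, among them ITGA3, ITGA5, ITGA6 and ITGAV, were chosen with their values in view. Neighbouring genes were also looked up after that.

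Of the 152 list entries, those without a probe set of 1 symbol were left out. Promoters came from RefSeq (GRCh38.p14), which held all 7 members in 17 windows. Bounds against the floor were added after the data were seen. Alternatives changed 1 choice at a time: the fold, the floor, the reading of a gene, cross-hybridising probe sets (_s_at and _x_at) and the scale (median, loess with a fraction of 0.3, spike-in controls). The counting was tested on simulated data. Python 3.11.15, pandas 2.3.3 and statsmodels 0.14.6 were used.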

Additional observations from a re-analysis of the deposited data

How the results depend on the processing

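Of the differences of the members, 44 of 52 values under the alternatives stayed within the spread of the gene's probe sets (or, for ITGA1, with a single probe set, the median such spread). This count is no measure of stability, because many of the values could hardly move. Averaging or dropping probe sets cannot change ITGA1, and setting readings at the floor cannot change ITGA2, DDR1 or ITGB1. Centring each array on its median moved no member by much. ITGA10 counted as within its spread even at -1.75 against -2.83, because its probe sets disagree widely. Averaging all probe sets took ITGA10 to -1.52. It left 2 genes at least 2-fold lower, because the average level of ITGA10 then fell below the floor. Setting readings below the floor at the floor, an alternative chosen after seeing the data, gave -1.55 for ITGA1 and -1.75 for ITGA10, left 3 genes and 4 probe sets at least 2-fold lower, and moved no list median by 1 standard error. Centring on the hybridisation controls gave -2.27 for ITGA1, -1.87 for ITGA2, -0.61 for ITGA11, -0.49 for ITGB1, -1.25 for DDR1 and -0.38 for DDR2. On that scale 4 member genes and 7 member probe sets were at least 2-fold lower. Genes past the floor at least 2-fold lower then numbered 966, against 161 on the deposited scale. On the deposited scale, 2 of the member probe sets were at least 3-fold lower. Raising the floor to the 75th percentile left 1 gene at least 2-fold lower, ITGA2, because ITGA10 and ITGA1 are dimmer. No direction of a member past 1.5-fold reversed.

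Of the list medians, 85 of 110 values stayed within 1 standard error over the list's genes. Here too some alternatives, such as centring each array on its median, could hardly move a value. With no floor the medians were -0.093 for other collagen-binding receptors, -0.17 for other alpha partners of ITGB1, -0.14 for other integrin subunits, -0.033 for fibrillar chains, -0.33 for network and beaded chains and 0.029 for metalloproteases. With the floor at the 25th percentile they were -0.50 for alpha partners, -0.46 for other subunits, -0.042 for fibrillar chains and -0.10 for metalloproteases, and at the 75th percentile -0.50 for alpha partners and -0.15 for activators. Without _s_at and _x_at probe sets the fibrillar median was -0.22. Averaging all probe sets gave -0.43 for network and beaded chains, and averaging those past the floor -0.49 for metalloproteases. Centred on the hybridisation controls the medians were -1.07 for other collagen-binding receptors, -1.30 for alpha partners, -1.35 for other subunits, -1.18 for fibrillar chains, -1.16 for network and beaded chains, -0.55 for activators, -0.25 for inhibitors, -0.45 for trafficking, -0.45 for DDR signalling and -0.80 for metalloproteases. The floors add or drop dim genes. Which scale is right was not tested. The number of arrays limits the precision throughout.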

Other observations

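ITGA1 and ITGA2 are near neighbours on chromosome 5 in the RefSeq order of gene starts. Among protein-coding genes, the start of PELO, a ribosome rescue factor gene, lies between theirs. Whether PELO overlaps ITGA1 was not looked up. PELO read 9.94 in control cells and 10.2 in the clone (0.25), and MOCS2, a molybdenum cofactor gene on the far side of ITGA2, read 9.24 and 9.52 (0.28). The next gene, FST, which encodes the activin antagonist follistatin, was 10.2 and 9.37 (-0.82), and PARP8, before ITGA1, differed by -0.30. The pair of integrin genes thus read lower with higher readings of the gene whose start lies between theirs, on the deposited scale. Centred on the hybridisation controls, every one of these differences is lower by 0.51.

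Around ITGA10 on chromosome 1, RBM8A, an exon junction gene, differed by 0.28 and PIAS3 by -0.42. Next to ITGB1, NRP1, a neuropilin receptor gene, differed by -0.76 (11.6 and 10.8). Next to DDR2, HSD17B7, a gene of cholesterol synthesis, differed by -0.83 (7.28 and 6.45). HSD17B7 passed the floor through the control array alone, so no fold is given for it. Over the 24 protein-coding genes within 2 places of a member that had a probe set and are no member, 17 lay past the floor. Their differences ran from -0.83 to 0.28, with 3 at least 1.5-fold lower, HSD17B7 among them, and none past 2-fold in either direction. Over all genes past the floor, 6.74% were at least 1.5-fold lower, 1.54% at least 2-fold lower and 0.738% at least 2-fold higher.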
